A study of Mus musculus with 21 samples.

Results

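The tRNAs for serine read 4 anticodons in the mouse, AGA, CGA, GCT and TGA, and all genes whose names end in SerAGA, SerCGA, SerGCT or SerTGA were taken as members. They were 1223 of the 3283 loci with counts of RNA polymerase III (Pol III) binding, of which 39 were SerAGA, 7 SerCGA, 1167 SerGCT and 10 SerTGA. The authors' list of transcribed tRNA genes held 19 of them among 249 genes, namely 6 SerAGA, 3 SerCGA, 7 SerGCT and 3 SerTGA. In the sequenced small RNA, 531 of the Ser genes were named by at least 1 read. Back skin came from male WT and NSun2-/- mice at postnatal day 25, in the growth phase of the hair cycle. The NSun2-/- mice carried a gene trap in both copies of Nsun2 and were kept on a C57Bl6/J CBA F1 background, and the WT mice stemmed from those same breedings. RNA bisulphite sequencing and tRNA-seq each had 4 libraries per genotype, and Pol III chromatin immunoprecipitation (ChIP-seq) had 2 libraries of WT and 1 of NSun2-/- skin beside an input for either genotype, each from pooled mice. The allele is present in every cell of the animal and total skin mixes epidermis, hair follicles and dermis, so fewer cells of a type and less RNA per cell cannot be told apart.

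NSun2 is the methyltransferase that writes 5-methylcytosine (m5C) into tRNAs at the junction between the variable arm and the TΨC arm, at positions 48 to 50. The tRNAs for Ser belong, with those for Leu, to the class with a long variable arm, and the enzyme that charges them with serine reads that arm rather than the anticodon. They carry further modifications that reverse transcriptase misreads or stops at, among them methylated adenosine at position 58, dimethylated guanosine at position 26, inosine at the first base of the AGA anticodon and methylated cytosine in the anticodon loop and the variable arm.

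One gene of each isoacceptor is shown, with the anticodon and C48 in capitals, because the results turn on reads that begin between these landmarks. The genes are listed in mm9 (NCBIM37) coordinates, and each sequence runs from the first to the last base of the mature tRNA without its CCA end.
chr11.trna394-SerAGA: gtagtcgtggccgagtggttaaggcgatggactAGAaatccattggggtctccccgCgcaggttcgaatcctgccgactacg
chr10.trna688-SerCGA: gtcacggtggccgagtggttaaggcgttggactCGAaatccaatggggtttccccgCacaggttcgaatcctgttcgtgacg
chr13.trna970-SerGCT: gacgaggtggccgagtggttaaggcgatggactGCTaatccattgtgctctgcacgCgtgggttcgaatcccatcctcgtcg
chr13.trna112-SerTGA: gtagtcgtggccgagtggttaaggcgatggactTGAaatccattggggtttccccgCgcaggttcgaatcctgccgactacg
They lie at chr11:68850979-68851060 on the plus strand, chr10:127895520-127895601 on the minus strand, chr13:22142555-22142636 on the minus strand and chr13:23610015-23610096 on the plus strand. All 19 transcribed genes were 82 nucleotides (nt) long with the anticodon at nt 34 to 36. Because of the long variable arm, C48 was nt 57 and A58 was nt 67. Each of the 19 genes had a C at position 48 and an A at position 58, and position 49 was G or A, so that C48 was the cytosine of the junction that all of them shared.

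SerAGA and 2 of the 3 SerTGA genes were nearly the same RNA, while chr10.trna1095-SerTGA differed from the SerAGA genes at 12 or 13 bases and was closest to chr11.trna400-SerCGA (92.7% identity). Between genes of these isoacceptors, 1 to 13 bases differed, and 84.1 to 98.8% were identical. The SerAGA and SerTGA genes printed here differed at nt 34, the first base of the anticodon, and at nt 50 in the tip of the variable arm, where SerAGA had C and SerTGA had T. SerGCT stood apart, with 73.2 to 76.8% identity to SerAGA and 93.9 to 100% among its own genes. The 19 genes held 12 distinct sequences, and 5 of the 6 SerAGA genes were identical, so that a read is rarely the product of 1 known gene. By GENCODE annotation the 19 genes overlapped no exon, and only chr13.trna978-SerAGA lay within another annotated gene, Gm11280. On chromosome 13 lay 11 of them, with histone genes such as Hist1h4h or the zinc finger gene Zfp184 as the nearest coding gene of most. The others lay near coding genes such as Per1, a component of the circadian clock (959 bp from chr11.trna400-SerCGA), and Casc5, which encodes a kinetochore protein (288 bp from chr2.trna1509-SerGCT).

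Libraries differed in depth and in quality before any comparison of genotypes. The tRNA-seq libraries held 17352126 to 36749727 counts, of which Ser sequences took 0.222 to 0.539% in WT and 0.0812 to 0.227% in NSun2-/- skin. Reads with a CCA end that begin within the gene made up 3.37 to 9.04% of all counts in WT and 0.970 to 3.97% in NSun2-/- libraries. In the bisulphite libraries, which list cytosines with at least 10 reads, 16.9 to 20.1% of listed cytosine calls were unconverted in WT and 8.32 to 16.8% in NSun2-/- skin. Cytosines on either strand between the ends of the Nsun2 gene, on chromosome 13, were listed 31, 23, 48 and 43 times in the WT bisulphite libraries and 0 times in each NSun2-/- library. The study's methods describe the tRNA-seq and bisulphite libraries as independent biological replicates, the labels do not tie them to single mice, and p-values measure the spread between libraries.

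The tRNA-seq counts, added over the genes of an isoacceptor, were not counts of molecules. A common factor was sought after this addition, so equal counts of a sequence at several genes also enter it. For 84.9% of the 106 SerAGA sequences and 71.6% of the 81 SerTGA sequences that could be assessed, the counts of all 8 libraries shared a factor above 1, against 43.8% over all tRNAs. These sequences carried 88.3% of the counts of SerAGA and 94.0% of those of SerTGA, but 35.5% for SerCGA and 10.9% for SerGCT. Divided by that factor, the counts of SerAGA shrank 4.24-fold, those of SerTGA 6.33-fold, those of SerCGA 1.33-fold and those of SerGCT 1.09-fold. A factor of this kind leaves the ratio between genotypes of a single sequence untouched, but it inflates the level of 1 isoacceptor against another, and counting error was larger than the counts imply. Results were therefore also computed with divided counts, an alternative chosen after the data were seen, and these are given where they differed.

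Pol III occupied the Ser genes in both genotypes, and no Ser gene stood out in the NSun2-/- library. Scaled to the library totals, all 19 transcribed Ser genes had more counts in the second WT and the NSun2-/- library than in the input of the same genotype. In the first WT library 18 of them did, the exception being chr11.trna400-SerCGA with 488 RPM against 628 in the input. At chr11.trna394-SerAGA there were 146 and 211 counts in the WT libraries and 413 in the NSun2-/- library, against 5 and 4 in the WT and NSun2-/- inputs. The highest single count was 995 at chr2.trna1509-SerGCT in NSun2-/- skin, where the WT libraries had 209 and 551. In the second WT library chr11.trna1821-SerGCT was higher, with 577. At chr13.trna976-SerGCT the WT libraries had 11 and 72 counts and the NSun2-/- library 94. Totals were 36866 and 63136 counts for the WT and 95112 for the NSun2-/- library, and ratios were taken of counts scaled to these totals, with a pseudocount of 1. Over the 21 Ser loci with at least 30 counts in the 3 ChIP libraries, the log2 ratio of NSun2-/- to the WT mean ran from −0.83 at chr13.trna980-SerAGA to 0.63 at chr10.trna1095-SerTGA, with a median of 0.25. None of the 21 was past 2-fold in either direction, whereas of all 335 loci 5.97% were past 2-fold lower and 0.896% higher. Between the 2 WT libraries the log2 ratio of the same loci ran from −0.59 to 1.93, and 2 of them were past 2-fold, chr13.trna976-SerGCT at 1.93 and chr11.trna400-SerCGA at 1.30. Summed over genes, the log2 ratio of NSun2-/- to WT was −0.05 for SerAGA, 0.30 for SerCGA, 0.39 for SerGCT and 0.49 for SerTGA, and that between the WT libraries was −0.06, 0.30, 0.59 and 0.60. With a single NSun2-/- library, the comparison has no replicate check and no test was made. Set against the first WT library alone, 3 of the 21 loci were past 2-fold higher. Outside the transcribed list, chr13.trna88-SerAGA was also occupied, with 49 and 79 counts in WT and 89 in NSun2-/- skin.

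**Figure D1:**
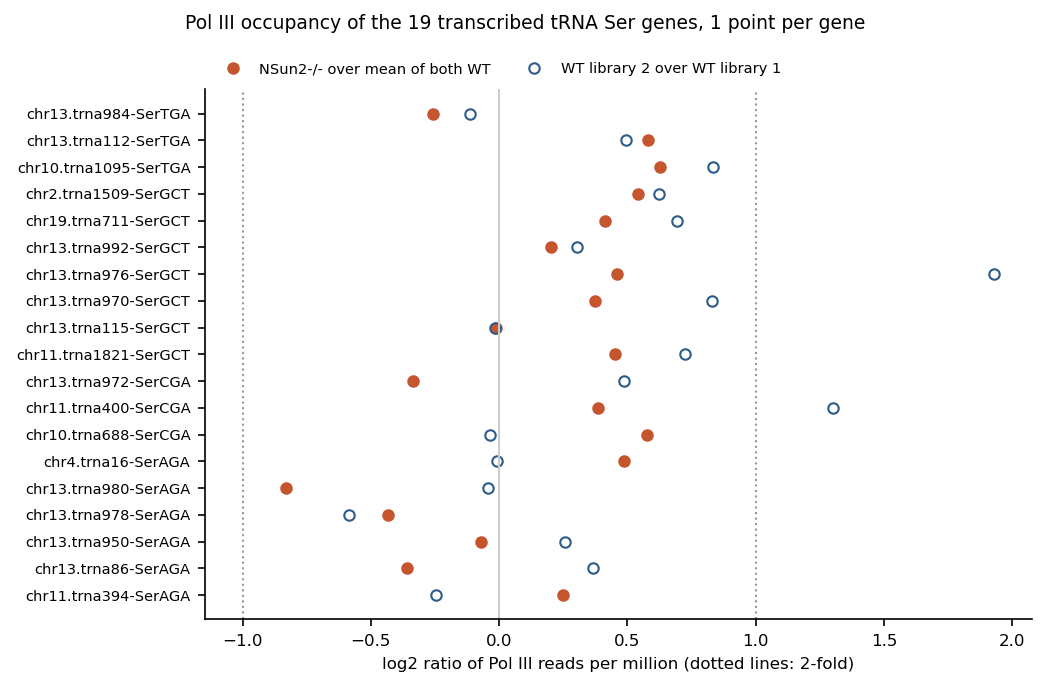
Log2 ratio of Pol III counts scaled to library totals for each of the 19 transcribed Ser genes (horizontal axis), for the NSun2-/- library over the mean of both WT libraries (filled points) and for WT library 2 over WT library 1 (open points), with dotted lines at 2-fold. The filled points lie between −0.83 and 0.63, and the open points reach 1.93.

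C48 of tRNA Ser was nearly fully protected from bisulphite conversion in WT skin and much less in NSun2-/- skin. Bisulphite turns unmethylated C into a base read as T, and m5C stays C. At chr11.trna394-SerAGA, C48 (position 68851035 of chromosome 11) was unconverted in 26 of 26, 12 of 12, 33 of 40 and 45 of 45 reads in the WT libraries. In the NSun2-/- libraries it was unconverted in 38 of 81, 11 of 16, 12 of 48 and 20 of 45 reads. The groups did not overlap, with the lowest WT library at 82.5% (95% Clopper-Pearson interval 67.2 to 92.7) and the highest NSun2-/- library at 68.8% (41.3 to 89.0). The mean fell from 95.6% ± 8.75 to 46.3% ± 17.9 (SD, n = 4 libraries each), a difference of −49.3 percentage points (edgeR adjusted p = 0.00224 over 122736 cytosines). It was the only call among the 14 Ser cytosines with enough reads to be tested, all of them in this gene, against 0.147% of all tested cytosines called lower and 0.114% called higher. The adjusted p was 0.0561 without WT replicate 1, 0.0821 without WT replicate 4 and 0.0636 without NSun2-/- replicate 1. Reads among the 5 identical SerAGA genes cannot be assigned with certainty, and the intervals cover counting error only.

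The other listed cytosines of this tRNA were less fully converted in 3 of the 4 NSun2-/- libraries. No cytosine 5′ of the anticodon was listed in any Ser gene. Pooled over the other listed cytosines of chr11.trna394-SerAGA, 6.77, 2.70, 5.92 and 19.6% of calls were unconverted in the WT libraries and 48.6, 68.4, 1.45 and 43.4% in the NSun2-/- libraries. NSun2-/- replicate 3 was the library in which the other listed cytosines were converted, and there C48 stood at 25.0% (13.6 to 39.6). In replicates 1, 2 and 4, C48 stood close to the cytosines around it, as the bisulphite profile along this gene shows. The remainder at C48 in those 3 libraries and the unconverted cytosines elsewhere in the molecule cannot be told apart. None of the other 13 tested cytosines passed the edgeR test or limma with all 8 libraries (11 of them had an unadjusted edgeR p under 0.05), and without NSun2-/- replicate 3, 8 of them were called more unconverted. An exception was C at nt 50 in the tip of the variable arm. It read 0 of 20, 0 of 32 and 0 of 29 unconverted in WT replicates 1, 3 and 4, and 1 of 73, 0 of 13, 0 of 44 and 0 of 32 in NSun2-/- skin, counts of 0 that allow at most 15, 9.38 and 10.3% in WT and 23.1, 6.82 and 9.38% in NSun2-/- replicates 2 to 4. At nt 50, reverse transcription of unconverted RNA also seldom read the C of the gene, as described with the misread bases.

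**Figure D2:**
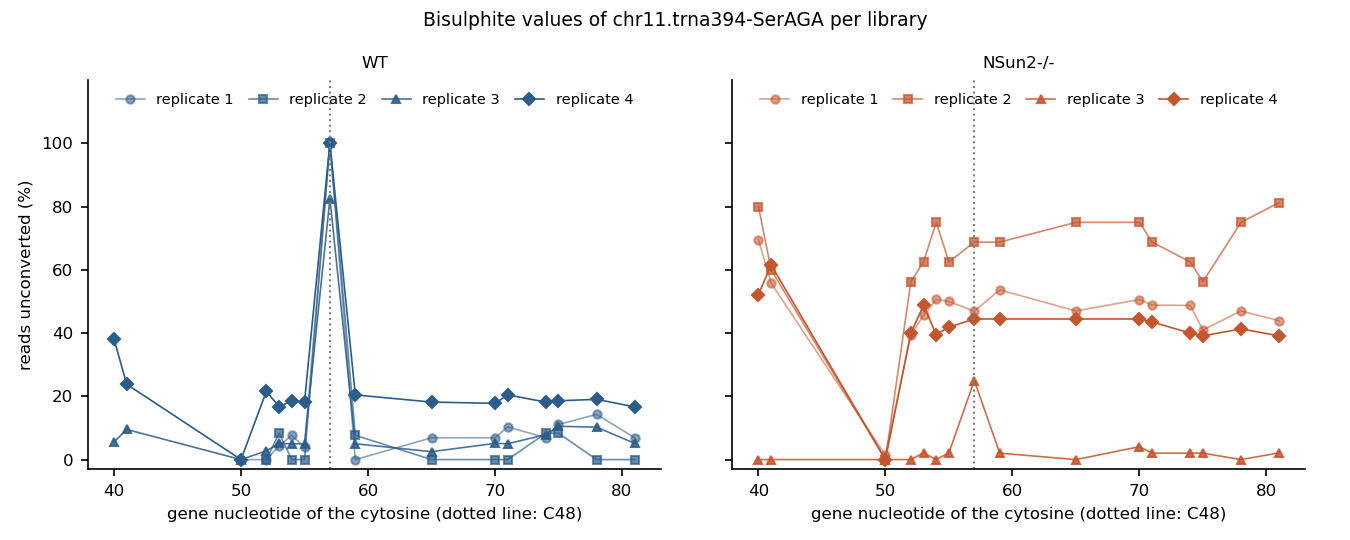
Percent of reads unconverted (vertical axis) at each listed cytosine of chr11.trna394-SerAGA by its nucleotide in the gene, for the 4 WT libraries (left) and the 4 NSun2-/- libraries (right), with C48 marked by a dotted line. C48 rises above the rest in every WT library (82.5% or more), and in NSun2-/- skin only replicate 3 shows a peak there (25.0%).

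C48 was listed in at least 1 library in 11 Ser genes, but only 4 of them had C48 reads in a WT library and 7 had NSun2-/- reads alone, so that values pooled over genes compare different sets of genes. Pooled, it was unconverted in 98.0, 100, 87.9 and 97.8% of reads in WT and in 50.2, 53.3, 22.3 and 43.9% in NSun2-/- libraries, from 12 to 277 reads per library. The mean fell from 95.9% ± 5.42 to 42.4% ± 14 (SD, n = 4 libraries each, p = 0.0286 by exact permutation, two-sided, which is the lowest value open to this design). The other Ser cytosines stood at 6.61, 2.70, 6.71 and 23.9% in WT and at 49.2, 53.2, 2.36 and 41.2% in NSun2-/- skin, which was within the scatter of the libraries (p = 0.143 by exact permutation, two-sided). Without NSun2-/- replicate 3 the difference was 37.9 points (p = 0.0286 by exact permutation). Minus these, C48 stood out by 91.3, 97.3, 81.2 and 73.8 percentage points in WT and by 1.02, 0.108, 20.0 and 2.67 points in NSun2-/- skin, a difference of −80.0 points (n = 4 each, p = 0.0286 by exact permutation). This subtraction was chosen after the data were seen, and its difference also takes in the rise of the other cytosines.

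The isoacceptors differed in what could be compared. SerTGA and SerAGA had C48 reads in both genotypes, SerCGA in 1 WT library, and SerGCT in NSun2-/- replicates 1 and 4 alone, so a loss at C48 could not be assessed for SerGCT. In chr13.trna112-SerTGA, C48 was unconverted in 18 of 18 and 21 of 22 reads of WT replicates 3 and 4 and in 20 of 40, 7 of 11, 0 of 14 and 9 of 23 reads of the NSun2-/- libraries. In chr13.trna86-SerAGA it was unconverted in 10 of 11 and 21 of 22 reads of WT replicates 1 and 4, and in 13 of 35, 6 of 18, 1 of 19 and 4 of 18 reads of the NSun2-/- libraries. At chr10.trna688-SerCGA, the WT library with reads had 12 of 12, and NSun2-/- replicates 1, 3 and 4 had 13 of 22, 8 of 13 and 9 of 13. In NSun2-/- replicate 3, the library with a low background, C48 therefore read 61.5% (31.6 to 86.1) in this SerCGA gene, 25.0% in chr11.trna394-SerAGA, 5.26% (0.133 to 26) in chr13.trna86-SerAGA and 0 of 14, which allows up to 21.4%, in chr13.trna112-SerTGA. These 4 values come from 1 library and 13 to 48 reads each, and were not tested.

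SerAGA and SerTGA reads were several-fold scarcer in NSun2-/- skin in tRNA-seq, SerCGA reads less clearly so, and SerGCT reads did not pass the test. Levels are given as CPM, the usual scaling of counts to the total of each library, in the order of the 4 libraries of a genotype. SerAGA had 815, 1448, 658 and 737 CPM in WT and 312, 125, 192 and 251 CPM in NSun2-/- skin. SerTGA had 427, 1014, 502 and 504 CPM against 166, 65.4, 123 and 125 CPM. In both, every NSun2-/- library lay below every WT library, and WT replicate 2 was the highest. SerCGA had 55.7, 51.2, 19.8 and 25.1 CPM in WT and 18.0, 6.39, 10.4 and 18.2 CPM in NSun2-/- skin, again without overlap. SerGCT had 4094, 2820, 1038 and 1107 CPM in WT and 1773, 615, 870 and 1119 CPM in NSun2-/- skin, and here the groups overlapped, with WT replicates 1 and 2 far above the rest. Of all 50 isoacceptor families, those tRNAs that share an anticodon, 28% had every NSun2-/- library below every WT library, as 3 of the 4 Ser families did. After TMM scaling, which centres the families of a library on each other, the log2 change was −1.62 for SerAGA (SE 0.25, edgeR adjusted p = 0.000883) and −1.91 for SerTGA (SE 0.27, edgeR adjusted p = 0.000883). For SerCGA it was −1.09 (SE 0.37, edgeR adjusted p = 0.0615) and for SerGCT −0.62 (SE 0.40, edgeR adjusted p = 0.283). By this test 2 of the 4 Ser families were called lower and 0 higher, against 10% of all families in each direction, and the median log2 change was −1.35 over the Ser families and 0.01 over all.

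Divided by their common factor, the counts gave SerCGA a log2 change of −1.35 (edgeR adjusted p = 0.0188), and SerCGA then passed the test as well. It also passed when counts were scaled to all counts without TMM (−1.52, edgeR adjusted p = 0.0351) and with DESeq2 (adjusted p = 0.0109). Scaled to all counts, the median of all families was −0.38, and 11 families were lower and 2 higher, where TMM gave 5 and 5. SerGCT passed the test in none of these. Scaled to library totals, the WT mean over all reads was 4.16-fold the NSun2-/- mean for SerAGA and 5.11-fold for SerTGA. With divided counts these were 5.02-fold and 3.64-fold, so which of them fell more depended on the counts used. The order of the levels was SerGCT, SerAGA, SerTGA and SerCGA from high to low in the WT mean, with genes of the same length. The ranges of SerAGA and SerTGA overlapped, and so did those of SerGCT and SerAGA in listed counts. With divided counts SerGCT and SerAGA stood further apart, at 63582, 38176, 16380 and 16761 against 3235, 5514, 3289 and 3835 counts in the WT libraries, and SerGCT was the higher one in each library. Since SerAGA and SerTGA shared sequences with 101865 counts, and 50.3% of SerAGA counts but 5.63% of SerTGA counts were of sequences listed at 1 isoacceptor alone, their levels were not independent of each other. For SerCGA this share was 95.7% and for SerGCT 94.2%.

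Most Ser reads in WT skin were 3′ parts of the tRNA with the CCA end that is added after transcription. No Ser read spanned a whole mature tRNA with its CCA end. The authors' alignment allowed at most 2 mismatches per read, so a whole read misread at more bases would not be listed. Reads with a CCA end that begin within the gene, at any length, were set apart after the data were seen. For SerAGA they numbered 576, 1133, 488 and 561 CPM in WT and 163, 54.3, 91.2 and 123 CPM in NSun2-/- skin. For SerTGA they numbered 384, 957, 455 and 465 CPM in WT and 134, 46.5, 91.7 and 94.8 CPM in NSun2-/- skin. The highest NSun2-/- library was below the lowest WT library by more than 2-fold in both. SerCGA had 46.5, 47.0, 15.3 and 22.8 CPM against 13.2, 4.54, 7.69 and 12.8 CPM, and SerGCT 3731, 2282, 667 and 740 CPM against 1326, 283, 509 and 713 CPM. The first of these did not overlap between genotypes and the second did, beside 45.2% of 42 families with every NSun2-/- library below WT. The log2 change was −1.48 for SerAGA (SE 0.19, edgeR adjusted p = 0.000212), −1.44 for SerTGA (SE 0.22, edgeR adjusted p = 0.000566), −0.54 for SerCGA (SE 0.28, edgeR adjusted p = 0.199) and −0.22 for SerGCT (SE 0.39, edgeR adjusted p = 0.796). So 2 of 4 Ser families were called lower, against 11.9% of all families lower and 4.76% higher, with a median of −0.99 over Ser and −0.06 over all families. With divided counts, SerAGA gave −1.46 and SerTGA −1.36, both still past the threshold.

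How far all 3′ reads fell depended on the scaling. TMM removes the fall that CCA-ended reads have in common, and the changes above are relative to it. Scaled to all counts, the median of the 42 families was −1.20, 16 families were lower and 0 higher where TMM gave 5 and 2 (DESeq2 6 and 5, divided counts 3 and 3), and the log2 changes were −2.67 for SerAGA, −2.62 for SerTGA, −1.78 for SerCGA and −1.39 for SerGCT, of which the last had an edgeR adjusted p of 0.0510. Whether the common fall was biological or came with the libraries was not tested.

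**Figure D3:**
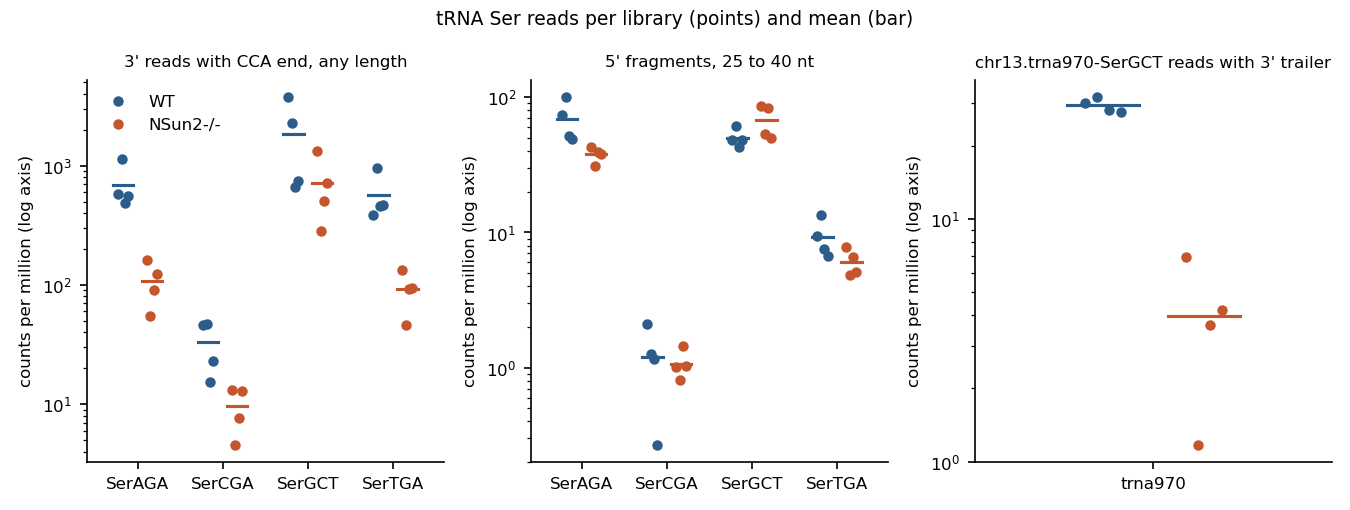
CPM (log axis) of tRNA Ser reads in the 4 WT and 4 NSun2-/- libraries (points) with their mean (bar), for 3′ reads with a CCA end (left), 5′ fragments (middle) and reads with the 3′ trailer of chr13.trna970-SerGCT (right). The genotypes are apart for SerAGA and SerTGA on the left and for the trailer reads on the right, where WT lies at 27.5 to 31.6 and NSun2-/- at 1.17 to 6.95, while SerGCT overlaps in the left and middle plots.

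Among 3′ fragments of 25 to 40 nt, which begin in the variable arm or the T arm, SerAGA and SerTGA were also called lower. SerAGA had 193, 234, 67.3 and 121 CPM in WT and 24.5, 5.80, 12.3 and 31.3 CPM in NSun2-/- skin, and SerTGA 50.3, 74.1, 24.4 and 33.5 against 11.2, 3.21, 6.25 and 7.06 CPM. SerCGA had 18.5, 29.6, 8.57 and 12.9 against 3.88, 1.12, 2.28 and 5.18 CPM. These 3 did not overlap between genotypes, beside 48.6% of 37 families. SerGCT ranged from 341 to 3122 CPM in WT and from 133 to 877 CPM in NSun2-/- skin, and overlapped. With TMM the log2 change was −1.56 for SerAGA (SE 0.30, edgeR adjusted p = 0.0137), −1.14 for SerTGA (SE 0.25, edgeR adjusted p = 0.0137), −0.94 for SerCGA (SE 0.34, edgeR adjusted p = 0.0812) and −0.13 for SerGCT (SE 0.59, edgeR adjusted p = 0.905). The 2 calls compare with 8.11% of families lower and 5.41% higher, 3 and 2 of 37. Scaled to all counts, 20 families were lower and 0 higher with a median of −1.55, all 4 Ser families were lower, and SerGCT stood at −1.62 (edgeR adjusted p = 0.0365). SerCGA was called with divided counts (edgeR adjusted p = 0.0461) and with DESeq2 (adjusted p = 0.0400). Without WT replicate 2, the adjusted p was 0.0693 for SerAGA and 0.0994 for SerTGA, and without NSun2-/- replicate 3 it was 0.0559 for SerTGA.

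The CCA-ended reads of the isoacceptors began at different places. The plot of read starts shows where the CCA-ended reads begin. In SerAGA and SerTGA most began just 3′ of the anticodon, and in SerGCT the mean was highest at C48 and the next bases. WT replicates 1 and 2 carried this mean, and nt 64 was the commonest single start in WT replicate 4 (146 CPM against 124 at C48) and in NSun2-/- replicates 2 and 3 (65.0 against 38.2 CPM and 114 against 80.6 CPM). From nt 34 to 40, the anticodon and the bases just after it, SerAGA had 359, 864, 403 and 411 CPM in WT and 130, 45.6, 72.9 and 81.4 CPM in NSun2-/- skin, 6.19-fold less in the mean. These were 62.3 to 82.6% of its CCA-ended reads in WT and 65.9 to 84.0% in NSun2-/- libraries, so that the share of reads starting there overlapped while their number did not. SerTGA had 315, 843, 409 and 406 CPM against 118, 40.8, 79.2 and 75.3 CPM from the same bases, 6.29-fold less. Further on, from nt 41 to 56, which includes the variable arm, SerAGA had 201, 256, 77.9 and 141 CPM against 25.2, 6.61, 14.5 and 37.5 CPM, 8.07-fold less, and SerCGA had 12.6, 24.0, 7.66 and 12.1 against 2.37, 0.898, 1.94 and 4.56 CPM, 5.77-fold less. At nt 57 to 59, from C48 on, SerGCT had 2903, 1393, 287 and 284 CPM in WT and 737, 101, 208 and 429 CPM in NSun2-/- skin, overlapping, and these were 38.4 to 77.8% of its CCA-ended reads in WT and 35.8 to 60.1% in NSun2-/- libraries, while SerAGA had no read that began there. The windows were drawn after the values were seen, and none was tested or computed for other families. Scale was that of all counts, in which CCA-ended reads fell in common.

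**Figure D4:**
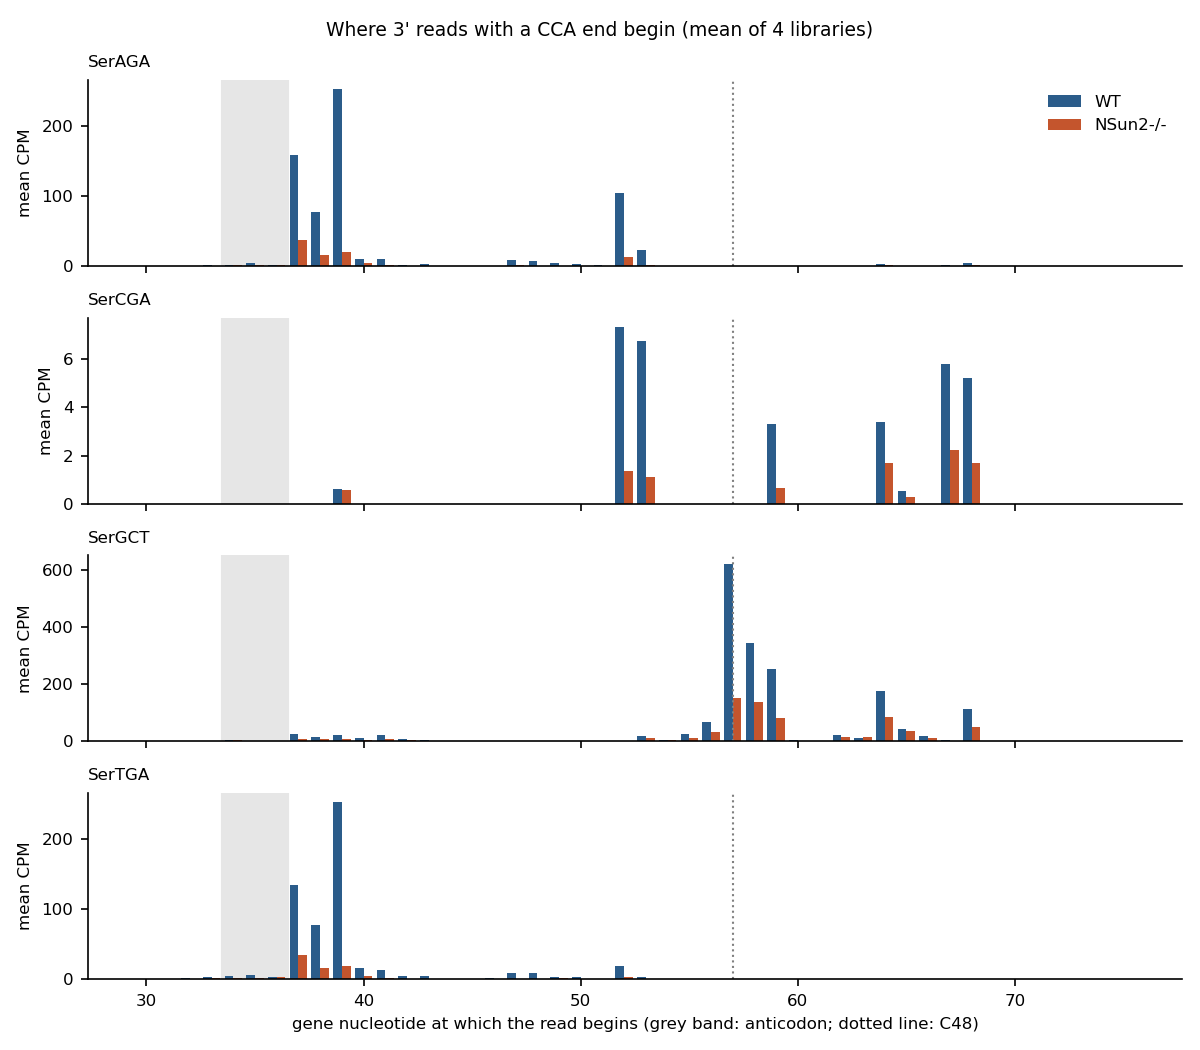
Mean CPM (vertical axis, a separate scale for each isoacceptor) of 3′ reads with a CCA end by the gene nucleotide at which they begin (horizontal axis), over 4 WT and 4 NSun2-/- libraries, with the anticodon shaded and C48 dotted. SerAGA and SerTGA reads begin chiefly just after the anticodon, SerGCT reads on average most often at C48 and the next bases, and the NSun2-/- mean is the lower one at the main start sites.

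Reads of this kind are shown with capitals at bases that differ from the gene. The first is the most abundant CCA-ended read of SerAGA and SerTGA, listed at 3 genes. The second differs from it by the base read at A58. The C50 variants are each listed at 1 SerAGA gene and differ from it in the tip of the variable arm, but the C50T read matches chr13.trna112-SerTGA, chr13.trna980-SerAGA and chr13.trna984-SerTGA without a difference and has the same base there as the first read. The last is the most abundant CCA-ended read of SerGCT, which was not called. Substitutions are counted from the first base of the gene.
SerAGA/SerTGA, nt 39 to 85, A67T: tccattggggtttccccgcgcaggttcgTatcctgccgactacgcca
SerAGA/SerTGA, nt 39 to 85, A67G: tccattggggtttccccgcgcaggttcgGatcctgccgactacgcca
Listed at SerAGA, nt 39 to 85, C50T: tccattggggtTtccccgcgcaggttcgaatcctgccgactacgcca
Listed at SerAGA, nt 39 to 85, C50A,A67G: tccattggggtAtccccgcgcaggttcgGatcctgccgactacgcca
SerGCT, nt 57 to 85, A67T: cgtgggttcgTatcccatcctcgtcgcca
The A67T read had 148, 456, 195 and 215 CPM in WT and 27.2, 13.1, 16.5 and 13.7 CPM in NSun2-/- skin, and no NSun2-/- library came near WT. Its log2 change was −3.44 (SE 0.40, edgeR adjusted p = 0.0139 over 13152 sequences). Its counts were multiples of 15 in all 8 libraries, and divided they were 177, 528, 315 and 322 against 36, 32, 26 and 16. The A67G read had 64.4, 201, 94.6 and 100 CPM against 13.6, 4.49, 6.97 and 12.8 CPM (log2 change −3.25, SE 0.43, edgeR adjusted p = 0.0155). The C50T read had 4.68, 17.6, 7.83 and 8.47 CPM against 1.31, 0.327, 1.18 and 0.570 CPM (log2 change −3.17, SE 0.57, edgeR adjusted p = 0.0296). In both, the highest NSun2-/- library lay below the lowest WT library. The C50A,A67G read had 20.1, 66.4, 14.8 and 17.7 CPM against 5.44, 0.980, 3.04 and 2.05 CPM (log2 change −2.99, SE 0.57, edgeR adjusted p = 0.0364), again without overlap. A further SerAGA read with C50G,A67G was listed with 180, 396, 252 and 396 counts in WT and 0 in each NSun2-/- library, but these were multiples of 36 and came to 5, 11, 7 and 11 when divided. The SerGCT read ranged from 83 to 964 CPM in WT and from 22.5 to 176 CPM in NSun2-/- skin, overlapped, and had a log2 change of −1.86 (SE 0.81, edgeR adjusted p = 0.330).

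Of 1006 Ser sequences listed, 291 passed the filter on low counts, and 14 of these were lower and 1 higher at an adjusted p under 0.05. Over all 13152 sequences tested, 1.59% were lower and 0.95% higher. The 14 lower reads were 7 CCA-ended SerAGA reads, 4 that SerAGA and SerTGA share, 1 SerTGA read listed apart and 2 SerGCT reads with a 3′ trailer. None of the 108 tested CCA-ended SerGCT reads was called. The number of lower reads depended on single libraries. It was 11 without WT replicate 1, 0 without WT replicate 2, 3 or 4 or NSun2-/- replicate 1, 2 without NSun2-/- replicate 2, 1 without NSun2-/- replicate 3 and 4 without NSun2-/- replicate 4.

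No Ser family passed the test among 5′ fragments, and the signs of the changes differed between isoacceptors. Among 5′ fragments of 25 to 40 nt, SerAGA had 73.8, 99.9, 51.7 and 49 CPM in WT and 43.2, 31.3, 39.4 and 37.9 CPM in NSun2-/- skin, not overlapping. SerTGA had 9.47, 13.4, 7.5 and 6.73 CPM against 7.80, 4.87, 6.55 and 5.07 CPM, overlapping. SerGCT had 48.1, 60.9, 43.2 and 48.2 CPM in WT and 86.8, 53.4, 83.4 and 49.8 CPM in NSun2-/- skin, in which replicates 1 and 3 were higher than every WT library and the others lay within the WT range. SerCGA had 2.12, 1.27, 1.15 and 0.268 CPM against 1.01, 0.816, 1.44 and 1.03 CPM, overlapping. Of the 42 families, 11.9% lay wholly below WT, as SerAGA did, and 14.3% wholly above. With TMM, no Ser family was called in either direction, against 0% of families lower and 21.4% higher. The log2 change was −0.70 for SerAGA (SE 0.28, edgeR adjusted p = 0.0795), −0.03 for SerCGA (SE 0.51, edgeR adjusted p = 0.980), 0.57 for SerGCT (SE 0.25, edgeR adjusted p = 0.0905) and −0.48 for SerTGA (SE 0.31, edgeR adjusted p = 0.236), and the median was −0.25 over Ser and 0.16 over all families. In all 42 families, 17 had an unadjusted p under 0.05. The call for SerAGA depended on the processing: it was lower with divided counts (−1.0, edgeR adjusted p = 0.0225), without TMM (−0.85, edgeR adjusted p = 0.0135) and with DESeq2 (adjusted p = 0.0135). SerTGA was lower with divided counts (−0.82, edgeR adjusted p = 0.0391). Of all families, 0 were lower and 9 higher with TMM, 6 and 8 without it, 7 and 9 with DESeq2 and 11 and 8 with divided counts.

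The 5′ reads of the isoacceptors ended at different places. SerGCT reads that begin at nt 1 and end at nt 26 to 33, before the anticodon and mostly at nt 32 and 33, had 39.4, 37.9, 29.0 and 33.7 CPM in WT and 79.7, 48.2, 74.2 and 44.3 CPM in NSun2-/- skin, and here every NSun2-/- library was higher. Those that ended within the anticodon or just after it, at nt 34 to 40, had 8.08, 22.1, 13.5 and 14.1 against 6.69, 5.17, 8.83 and 5.30 CPM, overlapping. Of SerAGA reads ending by nt 25, in the D arm or just after it, there were 120, 194, 99.6 and 95.1 CPM in WT and 74.1, 21.6, 37.3 and 78.1 CPM in NSun2-/- skin, lower in every library, and of those ending at nt 26 to 33 there were 20.1 to 35.2 CPM in WT and 14.9 to 28.4 CPM in NSun2-/- skin, overlapping. These windows were also drawn after the values were seen and were not tested. They were not computed for other families, so no share of all families stands beside them. The single Ser sequence that was called higher was a SerGCT 5′ fragment that ends at nt 32, shown with position 26 in capitals, where it reads A for G. Below it stands the most abundant 5′ read that SerAGA and SerTGA share.
SerGCT, nt 1 to 32, G26A: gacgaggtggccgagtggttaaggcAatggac
SerAGA/SerTGA, nt 1 to 24: gtagtcgtggccgagtggttaagg
The SerGCT read had 19.9, 10.2, 11.5 and 15.7 CPM in WT and 47.0, 30.6, 36.2 and 23.8 CPM in NSun2-/- skin, every NSun2-/- library above every WT library (log2 change 1.67, SE 0.35, edgeR adjusted p = 0.0483), and its counts shared no factor. No Ser sequence was called higher without TMM, without the filter on low counts or with any library but WT replicate 1 left out, whereas DESeq2 called 4. The SerAGA/SerTGA read had 32.1, 72.6, 38.6 and 34.1 CPM in WT and 26.7, 9.31, 16.0 and 25.6 CPM in NSun2-/- skin (log2 change −0.83, SE 0.35, edgeR adjusted p = 0.308).

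As shares of an isoacceptor's own reads, 5′ fragments had higher and CCA-ended reads lower means in NSun2-/- skin, but no share passed the test after adjustment. Of SerAGA reads, 9.05, 6.90, 7.85 and 6.65% were 5′ fragments in WT and 13.8, 25.1, 20.5 and 15.1% in NSun2-/- skin, without overlap. For SerTGA these fragments took 1.59% ± 0.424 in WT and 5.38% ± 1.47 in NSun2-/- libraries, and 2.96% ± 1.55 and 6.90% ± 2.61 for SerGCT (SD, n = 4 each). For SerAGA, SerTGA and SerGCT exact permutation gave p = 0.0286, the lowest possible, and 0.0750 after adjustment over 42 families, so that none passed, beside 38.1% of families whose shares did not overlap. Reads with a CCA end made up 74.8% ± 3.20 of SerAGA reads in WT and 48.2% ± 3.64 in NSun2-/- skin, and 91.8% ± 2.01 and 75.5% ± 3.89 of SerTGA reads (SD, n = 4 each, exact permutation test, p = 0.0286, adjusted 0.0723). For SerCGA they stood at 86.0% ± 6.89 and 72.3% ± 1.82 with the same p, and for SerGCT at 75.8% ± 12.6 and 60.8% ± 11.9 (exact permutation test, p = 0.143). The SerGCT totals included reads at loci outside the transcribed list. These had 290 CPM in the WT mean and 266 CPM in the NSun2-/- mean, and were counted in neither class. With the transcribed genes alone, the CCA share of SerGCT was 91.8% in WT and 84.2% in NSun2-/- skin (exact permutation test, p = 0.114). Its 5′ share was then 1.24 to 5.76% in WT and 5.90 to 14.9% in NSun2-/- libraries. The families whose CCA share did not overlap were 39.5% of 43. No family of any tRNA reached an adjusted p under 0.05 in either share, and 16 of 42 and 17 of 43 had an unadjusted p under 0.05. With divided counts the 5′ share of SerAGA was 4.22% in WT and 12.6% in NSun2-/- skin, and its CCA share 86.9 and 66.2%. SerTGA moved more, to 5′ shares of 10.4 and 24.0% and CCA shares of 71.2 and 42.2%, and the 5′ share of SerGCT was 4.14 and 11.4%.

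Reads of chr13.trna970-SerGCT that still carried the 3′ trailer were scarcer in NSun2-/- skin. A tRNA is made with a 3′ trailer that is cut off before CCA is added. Reads of chr13.trna970-SerGCT that begin at nt 1 and run past the last base of the gene into the trailer were found as 12 sequences of 91 to 95 nt, and each library held them. The authors selected the libraries by size before sequencing, and whether that step bore on reads of this length was not tested. The trailer follows the gene at chr13:22142541-22142554 on the minus strand and ends in the run of T at which Pol III stops. The most abundant such read is shown with the trailer in capitals, together with T for A at position 58.
chr13.trna970-SerGCT trailer: gtctgggtctttta
chr13.trna970-SerGCT read: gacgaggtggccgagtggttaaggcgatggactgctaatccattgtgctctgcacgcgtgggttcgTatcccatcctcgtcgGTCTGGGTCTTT
The 12 sequences together had 29.8, 31.6, 28.1 and 27.5 CPM in WT and 6.95, 1.17, 3.63 and 4.21 CPM in NSun2-/- skin. WT libraries were alike and every NSun2-/- library lay below them, 7.33-fold lower in the mean. They rested on 535, 548, 683 and 616 counts in WT and 138, 43, 86 and 74 counts in NSun2-/- skin, and 0 of the 12 sequences shared a common factor. Trailer reads were set apart as a class after the data were seen. In the SerGCT family they had 29.6 CPM in the WT mean and 4.86 CPM in the NSun2-/- mean. Of these, 29.25 and 3.99 CPM were of chr13.trna970-SerGCT. For the family, the log2 change was −2.19 (SE 0.36, edgeR adjusted p = 0.00487), beside 8% of 25 families with trailer reads called lower and 4% higher. Scaled to all counts it was −2.61 with a median of −0.63 over all families, and 2 families were lower and 0 higher. Pol III counts at the same gene were 63 and 192 in WT and 293 in NSun2-/- skin, a log2 ratio of 0.38 to the WT mean. The printed read alone had 11.4, 10.2, 9.89 and 9.67 CPM in WT and 2.52, 0.381, 1.56 and 1.59 CPM in NSun2-/- skin (log2 change −2.50, SE 0.49, edgeR adjusted p = 0.0382). The trailer reads of chr2.trna1509-SerGCT, the other Ser gene with any, did not begin at nt 1 and numbered 9, 1, 3 and 14 counts in WT and 37, 1, 11 and 20 counts in NSun2-/- skin, overlapping.

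Reverse transcriptase reads through some modified bases with errors, and misread bases therefore mark them. At A58 of SerGCT, 95.8, 94.9, 90.8 and 92.5% of counts differed from A in WT and 93.6, 92.6, 92.1 and 94.4% in NSun2-/- skin, overlapping. SerAGA differed in 89.1 to 91.1% in WT and 85.9 to 90.5% in NSun2-/- skin, and SerCGA in 71.1 to 81.4% and 80.2 to 83.7%. SerTGA differed in 97.3, 98.3, 98.3 and 96.9% in WT and in 96.6, 95.1, 96.2 and 93.3% in NSun2-/- skin, lower in each library (exact two-sided permutation test over 4 libraries each, p = 0.0286, adjusted 0.0923, beside 31% of 42 families without overlap). With divided counts, SerAGA differed at A58 in 67.9% of WT and 65.9% of NSun2-/- counts, and SerTGA in 86.3 and 78.2%. The trailer reads were also misread at A58, in 86.8% of 2382 WT and 85.9% of 341 NSun2-/- counts, with T the commonest base. At the first anticodon base, SerAGA read G for the A of the gene in 100% of 42 to 156 counts in every library, the reading that inosine gives, whereas SerGCT read its own G in all. SerTGA read G in 81.0 to 100% of counts there, from sequences also listed at SerAGA.

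**Figure D5:**
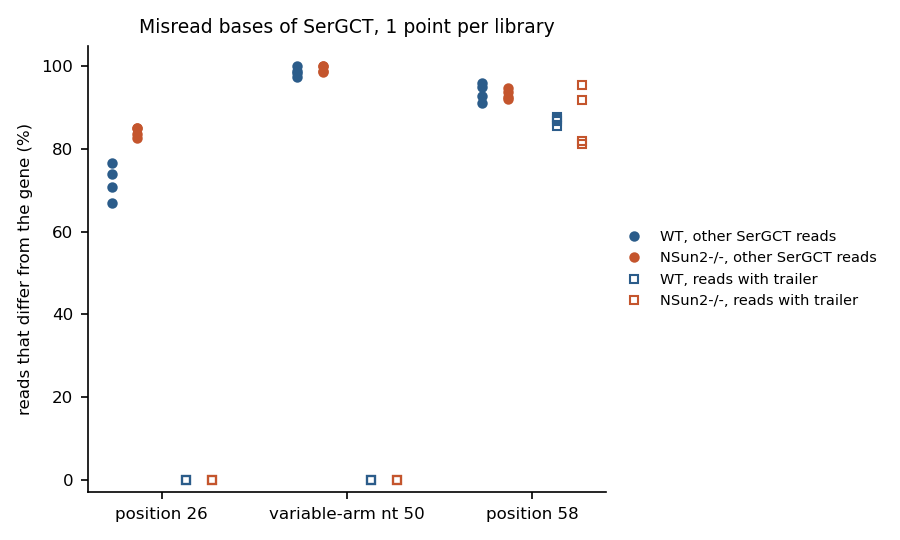
Percent of SerGCT counts that differ from the base of chr13.trna970-SerGCT (vertical axis) at position 26, at nt 50 of the variable arm and at position 58, 1 point per library, for reads with the 3′ trailer (open squares) and all others (filled circles) in WT and NSun2-/- skin. Trailer reads lie at 0 at the first 2 positions and near the other reads at position 58.

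The trailer reads of chr13.trna970-SerGCT matched the gene at G26 and in the tip of the variable arm, where most other SerGCT reads had another base. Listed sequences had at least 20 counts over the 8 libraries, so rarer variants of the trailer reads would not be seen. The authors' alignment also allowed at most 2 mismatches per read. A trailer read misread at A58, at G26 and in the tip of the variable arm together would therefore not be listed. Whether these bases were modified in the trailer RNA was not tested. At G26, 0 of 2382 WT and 0 of 341 NSun2-/- trailer counts differed from the gene. The other SerGCT reads differed there in 73.8, 76.6, 67 and 70.8% in WT and in 85.1, 85.0, 82.8 and 83.6% in NSun2-/- skin, chiefly as A. Every NSun2-/- library was above every WT library (72.1% ± 4.14 and 84.1% ± 1.13, SD, n = 4 each, p = 0.0286 by exact permutation, adjusted 0.2 over 21 families), beside 14.3% of families without overlap. With the trailer reads included, SerGCT differed at G26 in 47.4% ± 3.91 of WT and 80.1% ± 2.38 of NSun2-/- counts (SD, n = 4 each, exact permutation test, p = 0.0286, adjusted 0.2). At nt 50, where the gene has C, the trailer counts were likewise 0 of 2382 and 0 of 341 different, while the other SerGCT reads showed C in 0 to 2.70% and SerAGA reads in 0 to 2.08% of counts. The commonest base of these SerGCT reads was T, in 70.8 to 86.1% of counts, which is also the gene base of chr19.trna711-SerGCT at nt 50, so that a T there can be misread or the base of the gene. Since SerAGA reads showed T, A or G in place of the C at nt 50, a read with T there can stem from a SerAGA gene or from a SerTGA gene, and sequence alone did not part them.

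Leu tRNAs, which share the long variable arm, were set beside the Ser tRNAs as a ratio within each library. The log2 ratio of summed Ser to summed Leu counts was 1.03, 0.92, 0.26 and 0.09 in WT and 0.32, −1.01, −0.64 and −0.22 in NSun2-/- skin, a difference of −0.96 within the scatter of the 4 libraries of a genotype (p = 0.0857 by exact permutation). For 3′ reads with CCA of any length it was −0.55 (p = 0.171, exact permutation test), for 3′ fragments of 25 to 40 nt −0.53 (p = 0.257, exact permutation test) and for 5′ fragments −0.07 (p = 0.8, exact permutation test), the last turning to 0.56 with divided counts (p = 0.0857, exact permutation test). Divided counts also moved the ratio over all reads to −0.46 (p = 0.486, exact permutation test), that of CCA-ended reads to −0.14 (p = 0.971, exact permutation test) and that of 3′ fragments to −1.09 (p = 0.0571, exact permutation test). Without NSun2-/- replicate 1 the ratio over all reads was −1.20 (p = 0.0286, exact permutation test). Taken singly, LeuTAG was called lower over all reads (log2 change −1.09, edgeR adjusted p = 0.00236) and in CCA-ended reads (−0.75, edgeR adjusted p = 0.0297). LeuTAA was called higher in CCA-ended reads (0.63, edgeR adjusted p = 0.0297), and no other Leu family was called in either. LeuCAG had 1074 CPM in the WT mean, of which 567 CPM were at loci outside the transcribed list. Across the 8 libraries and 46 other families, the log2 CPM of GlyTCC, GlnTTG and ArgACG ran most like that of the Ser families summed, with Pearson's r of 0.98, 0.97 and 0.92. Libraries of both genotypes and the share of CCA-ended reads enter each of these values, which are a description. GlyTCC was also called lower over all reads (log2 change −1.22, edgeR adjusted p = 0.0124), and GlnTTG and ArgACG were not called.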

How the data were processed

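Total back skin was profiled by RNA bisulphite sequencing, tRNA-seq and Pol III ChIP-seq. The members and lists were chosen with earlier results of these data known. Per the labels and methods, the authors aligned reads with Bowtie to mm9, distributed reads that match several tRNA genes, realigned reads after trimming CCA, and aligned bisulphite reads with Bismark 0.7.6. The submitters' processing notes name GRCh37, GRCm38, hg19 and mm9 as builds and DESeq among the tools. The deposited counts were raw counts per tRNA gene (Pol III) and per gene and read sequence (tRNA-seq). The bisulphite files hold the deposited percent of unconverted reads per cytosine with counts of unconverted and converted reads, and percentages were recomputed from these counts.

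Reads of 12338 of 53875 table rows at minus-strand genes were turned to the gene strand. Bisulphite positions were read as counted from 0, since all 17957 positions checked lay on C or G after adding 1, against 49.2% as listed. The counts of a sequence at all genes with the same anticodon were added together, and up to 4 differences from a gene were allowed. Fragments of 25 to 40 nt were set apart, and at least 4 trailer bases were asked for. Families, sequences and cytosines (at least 10 reads in at least 3 libraries per genotype) were tested with edgeR 4.0.16 (R 4.3.3), by quasi-likelihood for families, sequences and, as methylated against unmethylated counts, cytosines, with Benjamini-Hochberg adjustment over all features. A call needed an adjusted p under 0.05, and for cytosines a difference of 10 percentage points. Single values were compared by exact permutation of 4 against 4 libraries (scipy 1.17.1, Python 3.11.15). DESeq2 1.42.0, limma 3.58.1, no TMM, no filter, a replicate block, other lengths, reads of 1 isoacceptor, the transcribed genes alone, divided counts and leaving out each library were alternatives. Data were simulated with the depth and spread of these libraries, with 2000 families drawn with repeats from the real ones. Changes of 2 and 3 on the log2 scale were recovered in 100% of the changed families, and 6.19% of the calls were false. Those of 3 were recovered in 15.3% of the changed sequences, so that few sequence calls are possible at this depth and spread, whose parts were not told apart. A change of 60 percentage points was recovered in 45.5% of cytosines. Genes named in the text follow a fixed rule: all transcribed Ser genes, all tested Ser cytosines, the most abundant sequence of each read class, and up to 5 lower and 5 higher sequences. Sequences were read from the mm9 genome and the deposited table.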

Additional observations from a re-analysis of the deposited data

Results flagged for a closer look

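Among 84 groups of 4 libraries, 4 held a library that lay far from its group, and chance gives about 1 in 20. In 3 of them it was WT replicate 2 of the tRNA-seq. Its SerAGA reads with a CCA end stood at 1133 CPM, where the other WT libraries lay between 488 and 576 CPM. Its SerTGA reads stood at 1014 CPM over all reads, against 427 to 504 CPM, and at 957 CPM over reads with a CCA end, against 384 to 465 CPM. The calls of SerAGA and SerTGA in both of these read sets held without that library. The other was NSun2-/- replicate 3 of the bisulphite libraries, in which C48 stood above the other Ser cytosines by 20.0 percentage points, against 0.108 to 2.67 in the other NSun2-/- libraries. It was also the NSun2-/- library with the lowest share of unconverted other Ser cytosines, 2.36%. The cause of neither was tested.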

How the results depend on the processing

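The falls of SerAGA and SerTGA over all reads and over CCA-ended reads of any length, and that of the trailer reads, kept their direction and stayed past the threshold in every alternative run. Of the 4 Ser families in 5′ fragments, 1 was lower without TMM or with DESeq2 and 2 with fragments of 20 to 50 nt, without mismatches or with divided counts, and leaving out a library gave 0 to 1 lower and 0 to 1 higher. Of the Ser families in 3′ fragments of 25 to 40 nt, 4 were lower without TMM, 1 with reads of 1 isoacceptor or without mismatches, and 0 to 3 with a library left out. Of Ser sequences, 42 were lower and 4 higher with DESeq2, 3 and 0 without a filter, 11 and 0 without TMM, and 0 to 11 and 0 to 1 with a library left out. Ser cytosines called less unconverted numbered 0 to 1 and more unconverted 0 to 8 with a library left out, and Ser loci past 2-fold in Pol III counts 0 to 3. Pooled C48 differed by −52.9 points with at least 30 reads (exact permutation test, p = 0.100, the smallest these libraries allow).

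Results that did not pass the test and turned direction were these, and the cause was not tested. SerCGA 5′ fragments ranged from −0.39 to 0.41 with a library left out. SerGCT gave −0.22 for 5′ fragments, 0.24 for 3′ fragments and 0.058 for CCA-ended reads without mismatches, and with a library left out −0.46 to 0.87 for 3′ fragments and −0.40 to 0.32 for CCA-ended reads. SerTGA 5′ fragments gave 0.24 with reads of 1 isoacceptor, and the SerAGA share misread at position 26 then changed by −5.77 points. With a library left out, the share misread changed by −4.13 to 2.22 points at position 34 of SerTGA and −1.21 to 0.45 points at position 58 of SerGCT. The Ser to Leu ratio of 5′ fragments was 0.37 with reads of 1 isoacceptor, 0.56 with divided counts and −0.26 to 0.10 with a library left out, and that of all reads −1.20 to −0.75.

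Replicate numbers did not pair the libraries, with correlations of same-numbered libraries from −0.41 to 0.07 in tRNA-seq and −0.15 to 0.31 in bisulphite libraries. With the number as a replicate block, 0 Ser sequences were lower and 0 higher, SerCGA 5′ fragments gave 0.14 and SerGCT 3′ fragments 0.24, and pooled C48 gave −53.5 points (p = 0.125, exact sign permutation, the smallest that 4 pairs allow). With the block the log2 change was −1.64 for SerAGA and −1.92 for SerTGA over all reads. Depth limits the C48 values, which rest on 10 to 81 reads per gene and library, and few changes of single sequences were recovered on simulated data.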
